A study of Mus musculus with 17 samples.

Results

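Immediate-early genes of the EGR, IER and SRF groups were followed through mouse macrophage RNA-seq. The 9 genes are Egr1, Egr2, Egr3, Ier2, Ier3, Ier5, Nr4a1, Nab2 and Srf, taken by symbol from a table of 24453 gene models, in which each has a single model. Primary macrophages were compared with and without 1 h of KLA (Kdo2 lipid A), which activates the receptor TLR4, and an immortalised macrophage line was compared with and without CRISPR editing of the AP-1 genes Atf3, Jun or Jund.

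Immediate-early genes are transcribed within minutes of a stimulus and need no new protein synthesis for it. A common route runs from the mitogen-activated kinases to serum response factor (SRF), which sits with ternary complex factors of the ELK family on an A/T-rich element called the CArG box. The first genes made in this way include transcription factors that go on to act on other promoters. Among them EGR1, EGR2 and EGR3 are zinc finger factors that bind G/C-rich sites, NAB2 is a corepressor that binds EGR proteins, and NR4A1 is an orphan nuclear receptor. IER2 and IER5 are small nuclear proteins, the latter known for its link to heat shock factor 1, and IER3 modulates cell survival.

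Thioglycollate-elicited macrophages (TGEMs) came from the peritoneum of male 8-week mice of 2 strains, and received PBS as vehicle or KLA at 100 ng/mL. Each strain has 1 vehicle library, and KLA has 1 library from C57Bl/6EiJ and 2 from Balb/cJ. Immortalised bone marrow-derived macrophages (iBMDMs) are C57Bl/6EiJ cells transformed by a retrovirus with Myc and mutant BRAF, and all of the iBMDM groups carry Cas9. Lentiviral guides targeted Atf3 in Atf3KO, Jun in JunKO and Jund in JunDKO, and infected cells were sorted as pools for a marker on the virus, while a scramble control stood beside them (Scramble, zsGreen in its titles), with 2 libraries in each of the 4 groups and no KLA. The titles of the knockout libraries carry Veh and those of Scramble do not, so a vehicle treatment of the knockouts alone could not be told apart from the edits. Nothing in the labels ties replicates to separate cultures or animals, so the p-values measure the spread between these libraries, which may be technical. The labels give 17 samples, of which these 13 polyA libraries have RPKM values (reads per kilobase of exon, scaled to library depth), and 4 GRO-seq samples were not analysed here.

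Depths were worked out from the steps between low RPKM values and reached 18444437 reads. The JunKO and Scramble libraries and JunDKO replicate 1 held 1553296 to 1929988 reads each, so 1 RPKM of a gene such as Egr1 rests on about 5 reads there. RPKM over exons cannot check the edits, because an edited locus can still be transcribed. The study reports that western blots verified knockout efficiency, and that Jun ChIP-seq lost much of its signal in Jun knockout iBMDMs. In Scramble the targeted genes measured 80.7 and 77.4 RPKM (Atf3), 17.6 and 18.5 (Jun) and 9.19 and 8.33 (Jund). The libraries labelled for their editing had 154 and 169 RPKM of Atf3, 26.2 and 20.5 of Jun, and 6.94 and 6.07 of Jund. Of 10 macrophage markers 9 were found in the table by symbol, and all 9 reached 1 RPKM in every group. Models with at least 1 read numbered 10425 and 10631 in Atf3KO, against 11884 to 12533 in the other 6 iBMDM libraries, and the title of Atf3KO replicate 2 carries a later date than the rest.

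The promoters were examined first for the elements named above. RefSeq windows of 300 bases on GRCm38.p6, from 250 before the start onward, were at hand for 6 of the genes, namely Egr2, Ier3, Ier5, Nab2, Nr4a1 and Srf, and each was set on the same start as the deposited model (RefSeq lists 5 starts for Egr2). Both strands were searched for the CArG box, for the EGR motif GCGNGGGCG, for the kappaB site of NF-kappaB, for the cAMP response element TGACGTCA and for the AP-1 motif TGACTCA. CArG boxes were in 2 of the 6 windows, those of Srf and Egr2, while 1.63% of all 32851 windows of this length held one. Srf had a pair of CArG boxes, whose first bases lay at -82 and -62 from the start, and an EGR motif at -101. Egr2 had a single CArG box at -72. An EGR motif was also found in the Nr4a1 window, at -60, and 5.55% of all windows had one. KappaB sites were at -92 in Ier3 and at -3 in Nr4a1, with 4.51% of all windows holding a match. The windows of Ier5 and Nab2 had none of the 5 motifs, and the cAMP response element and the AP-1 motif, held by 1.79% and 5.20% of all windows, were in none of the 6. The matches to kappaB and the one to EGR in Nr4a1 read on the opposite strand, so the printed letters are their reverse complement. Such a match describes the letters of the window and is not evidence of binding.

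Promoter stretches of the 4 genes with a match are shown because they cover a gene of each kind, the factor SRF itself, an EGR factor, a nuclear receptor and an IER gene. Each runs 5′ to 3′ along the gene from 150 bases before the start through the first 10 bases of the transcript, with the matches in capitals. They are chr17:46556153-46556312 on the minus strand (Srf), chr10:67537719-67537878 on the plus strand (Egr2), chr15:101266696-101266855 on the plus strand (Nr4a1) and chr17:35821563-35821722 on the plus strand (Ier3). The capitals mark the EGR motif and then both CArG boxes in Srf, the CArG box in Egr2, the EGR motif and then the kappaB site in Nr4a1, and the kappaB site in Ier3.
Srf: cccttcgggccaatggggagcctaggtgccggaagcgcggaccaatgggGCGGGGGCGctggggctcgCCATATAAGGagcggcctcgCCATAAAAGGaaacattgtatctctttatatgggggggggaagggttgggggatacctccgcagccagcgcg
Egr2: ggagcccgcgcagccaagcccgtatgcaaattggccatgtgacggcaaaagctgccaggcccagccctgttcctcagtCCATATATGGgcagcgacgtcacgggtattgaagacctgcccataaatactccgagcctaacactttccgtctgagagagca
Nr4a1: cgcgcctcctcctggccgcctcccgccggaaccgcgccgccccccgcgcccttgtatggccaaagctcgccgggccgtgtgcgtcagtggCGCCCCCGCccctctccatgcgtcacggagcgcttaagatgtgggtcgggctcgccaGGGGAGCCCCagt
Ier3: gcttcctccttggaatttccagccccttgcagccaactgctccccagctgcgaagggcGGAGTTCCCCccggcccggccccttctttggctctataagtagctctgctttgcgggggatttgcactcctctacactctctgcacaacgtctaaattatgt

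**Figure D1:**
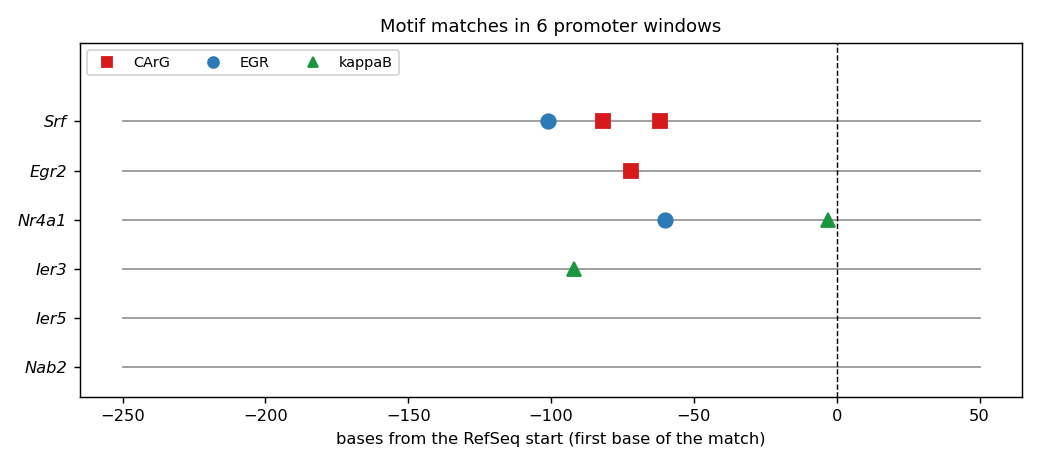
Matches to the CArG box (squares), the EGR motif (circles) and the kappaB site (triangles) in the promoter windows of 6 genes, by distance of the first base of the match from the RefSeq start (x axis, bases). Srf holds a pair of CArG boxes and an EGR motif between -101 and -62, and the lines of Ier5 and Nab2 are empty.

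The windows were G/C-rich for the most part. Nab2 (74.0% G or C) and Nr4a1 (72.3%) were the richest, followed by Srf (63.3%), Egr2 (60%), Ier5 (59.0%) and Ier3 (54.0%), and the median over all windows was 52.7%. Nr4a1 held 35 CpG dinucleotides, Srf 25, Nab2 22, Ier5 20, Egr2 19 and Ier3 10, against a median of 7.

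The first comparison asked how these genes respond to TLR4 in primary macrophages. After 1 h of KLA all 9 genes were higher in every KLA library than in both vehicle libraries, as were 5.74% of all 10357 tested models. Of the 9 genes 5 were called, Egr1, Ier3, Nr4a1, Ier2 and Egr2, all higher, beside 1.13% of all tested models. Called models had an adjusted p under 0.05, changed by at least 2-fold and averaged 16 RPKM or more in one group or the other. The median log2 fold change was 3.07 over the 9 genes and -0.15 over all tested models, both on the log2(RPKM + 1) scale used throughout, which understates the change of genes with low values. In bulk RNA, fewer cells that express a gene and less RNA per cell cannot be told apart.

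**Figure D2:**
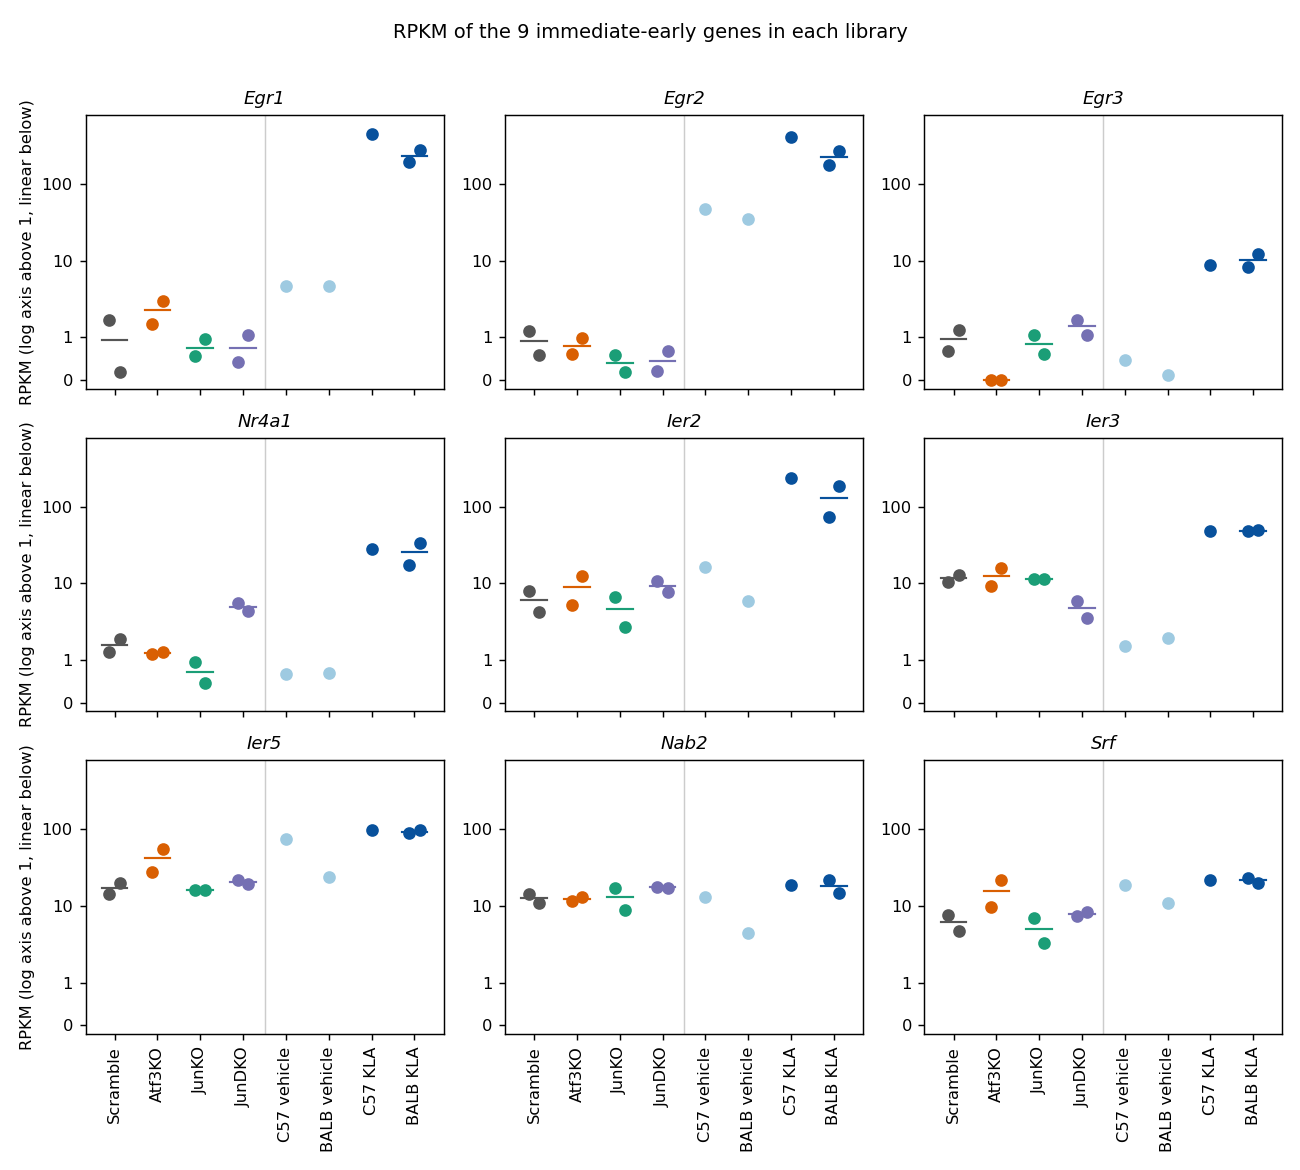
RPKM of each of the 9 genes in every library (points, y axis linear below 1 and logarithmic above it), with a line at the mean of groups of 2 libraries and iBMDM groups left of the vertical line. The KLA libraries (dark blue) lie above the vehicle libraries (light blue) in all 9 panels, by much less in Ier5, Nab2 and Srf than in the others.

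Among the EGR factors, Egr1 had the largest fitted change on the log2(RPKM + 1) scale, while in Balb/cJ the ratio of read rates was larger for Egr3 (74.4 and 108, from 1 vehicle read) than for Egr1 (41.4 and 58.1). Its model (chromosome 18, 34861207 to 34864956, plus strand, mm10 as for all models here) measured 4.73 RPKM in Balb/cJ vehicle and 4.69 in C57Bl/6EiJ vehicle, and 196, 275 and 451 RPKM in Balb/cJ KLA replicates 1 and 2 and in C57Bl/6EiJ KLA. The vehicle libraries of both strains were nearly equal, and the 3 KLA libraries stood far above them with C57Bl/6EiJ the highest. Egr1 rose by 5.76 ± 0.33 on the log2 scale (SE, 3 KLA and 2 vehicle libraries, limma-trend adjusted p = 3.49e-04), the 9th highest of the 10357 tested models.

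Egr2 differed from Egr1 in its resting level. Egr2 (chromosome 10, 67537869 to 67542188, plus strand) already measured 35.0 RPKM in Balb/cJ vehicle and 47.3 in C57Bl/6EiJ vehicle, and reached 177, 268 and 410 RPKM in Balb/cJ KLA replicates 1 and 2 and in C57Bl/6EiJ KLA. The KLA libraries kept the order seen for Egr1, and the levels after KLA were near those of Egr1 in each library, while the vehicle levels were well above. Its rise of 2.81 ± 0.30 on the log2 scale (limma-trend adjusted p = 0.00468) ranked 82nd among the tested models.

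Egr3 was induced from near absence to a low level. Egr3 (chromosome 14, 70077795 to 70082613, plus strand) had 1 read (0.112 RPKM) in Balb/cJ vehicle and 20 reads (0.462 RPKM) in C57Bl/6EiJ vehicle, against 8.37, 12.2 and 8.75 RPKM in the 3 KLA libraries. Within C57Bl/6EiJ the ratio of read rates was 18.9 (exact 95% interval 11.7 to 32.2). Within Balb/cJ it was 74.4 for KLA replicate 1, with an interval of 13.3 to 2945 that reflects the single read, and these intervals cover counting error only. Its fitted change of 3.07 ± 0.29 passed the adjusted p (SE, limma-trend adjusted p = 0.00276) and the fold limit but not the minimum of 16 RPKM. With the adjusted p as the sole limit 6 of 9 genes passed, beside 1.53% of all tested models. Egr3 lost its pass by adjusted p in 1 of 16 alternatives.

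Nr4a1, the nuclear receptor, went from about 0.7 RPKM to a moderate level. In the Balb/cJ and C57Bl/6EiJ vehicle libraries the model (chromosome 15, 101266846 to 101274794, plus strand) stood at 0.692 and 0.675 RPKM, and it reached 17.3, 33.7 and 28.4 RPKM in Balb/cJ KLA replicates 1 and 2 and in C57Bl/6EiJ KLA. Both strains thus started at the same level and their KLA libraries overlapped. Nr4a1 rose by 4.00 ± 0.32 on the log2 scale (SE, limma-trend adjusted p = 0.00145). The vehicle values rest on 4 and 19 reads, and the ratio of read rates in C57Bl/6EiJ was 42.1 (exact 95% interval 26.3 to 71.2, counting error only).

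The IER genes did not respond alike. Ier3 (chromosome 17, 35821713 to 35822911, plus strand) had the tightest response of the 9, at 1.97 and 1.53 RPKM in Balb/cJ and C57Bl/6EiJ vehicle and 47.9, 49.8 and 48.4 RPKM in Balb/cJ KLA replicates 1 and 2 and in C57Bl/6EiJ KLA. Its KLA libraries averaged 48.7 ± 0.98 RPKM (SD, n = 3), a rise of 4.16 ± 0.24 on the log2 scale (SE, limma-trend adjusted p = 3.49e-04). Ier2 (chromosome 8, 84661331 to 84662852, minus strand, 1 exon) was the most variable of the called genes, at 5.90 and 16.5 RPKM in Balb/cJ and C57Bl/6EiJ vehicle and 73.9, 187 and 239 RPKM in the KLA libraries in the same order. Its log2 fold change was 3.96 ± 0.41 (SE, limma-trend adjusted p = 0.00386), and the spread between the Balb/cJ KLA libraries was over 2-fold. Ier2 and the other called genes stood among the 82 highest changes of all tested models.

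**Figure D3:**
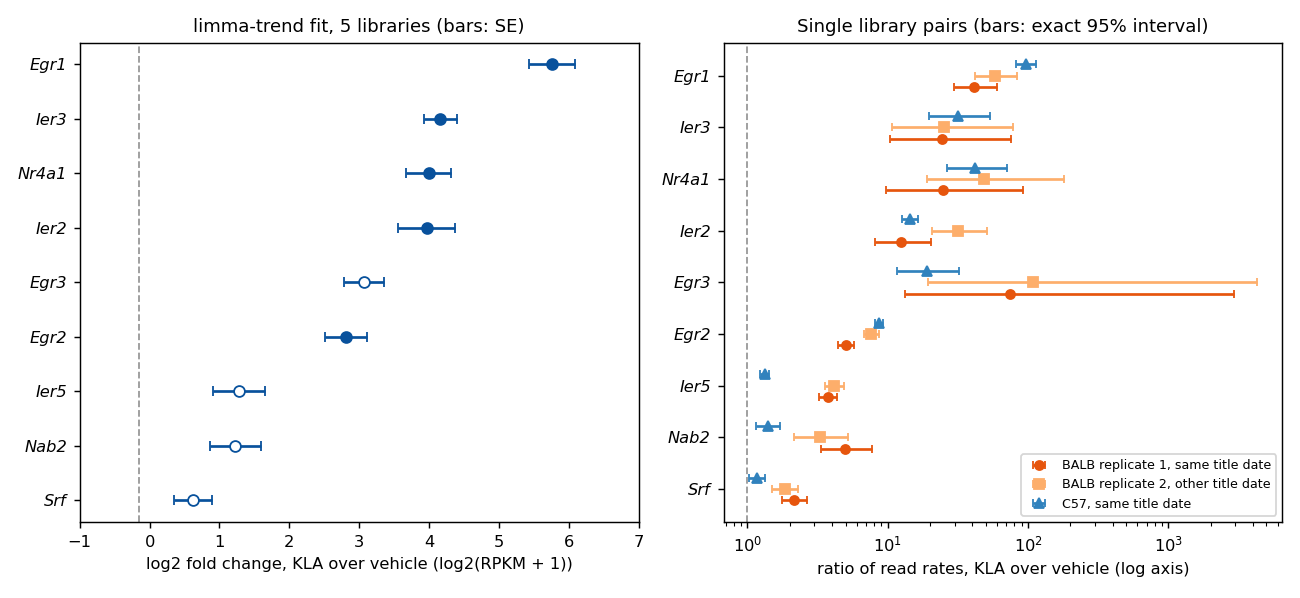
Response to KLA of the 9 genes. Left, log2 fold changes from the fit to 5 TGEM libraries with their SE, with filled points for called genes and a dashed line at the median of all tested models (-0.15). Right, ratios of read rates in single pairs of libraries on a log axis with exact 95% counting intervals, the vehicle library of Balb/cJ being shared by 2 of the pairs. Ier5, Nab2 and Srf lie lowest on both sides, and for each of them the C57Bl/6EiJ pair is below both Balb/cJ pairs.

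Ier5, Nab2 and Srf responded least and were not called. Ier5 (chromosome 1, 155096367 to 155099636, minus strand, 1 exon) measured 23.8 RPKM in Balb/cJ vehicle and 75.2 in C57Bl/6EiJ vehicle, against 89.0, 98.7 and 99.7 RPKM in Balb/cJ KLA replicates 1 and 2 and in C57Bl/6EiJ KLA. The KLA libraries were within a narrow range, and the vehicle libraries were well apart. The difference on the log2 scale was 1.28 ± 0.38 (SE, limma-trend adjusted p = 0.206). It passed in a test limited to models of at least 16 RPKM (limma-trend adjusted p = 0.0289) and in limma-voom on recovered reads (adjusted p = 0.0213), within a range of 0.0213 to 0.917 over all alternatives.

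Nab2 encodes a corepressor of EGR proteins. At chromosome 10, 127660918 to 127666703, minus strand, it had 4.49 RPKM in Balb/cJ vehicle, 13.2 in C57Bl/6EiJ vehicle, and 22.2, 14.7 and 18.6 RPKM in Balb/cJ KLA replicates 1 and 2 and in C57Bl/6EiJ KLA. This difference did not pass (1.23 ± 0.36 on the log2 scale, SE, limma-trend adjusted p = 0.207). Its model overlaps Stat6 on the opposite strand and no strand option was stated, so reads of these genes cannot be told apart where they overlap.

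Srf itself had the smallest difference. Its model (chromosome 17, 46546839 to 46556162, minus strand) stood at 11.0 and 18.6 RPKM in Balb/cJ and C57Bl/6EiJ vehicle and 23.5, 20.2 and 21.8 RPKM in the KLA libraries in the order above. Vehicle and KLA did not overlap, although C57Bl/6EiJ vehicle lay just under the lowest KLA library. A log2 fold change of 0.63 ± 0.27 did not pass (SE, limma-trend adjusted p = 0.340).

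**Figure D4:**
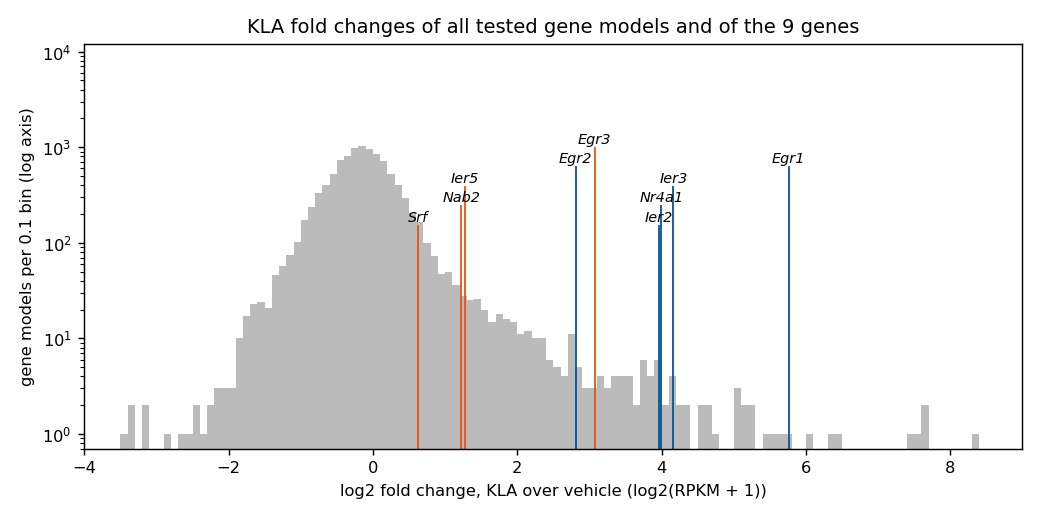
Distribution of log2 fold changes, KLA over vehicle, for all 10357 tested models (grey bars, 0.1 wide, log axis), with the 9 genes as vertical lines whose height carries no value. Called genes (blue) lie between 2.81 and 5.76. Genes that were not called (orange) are Srf, Nab2 and Ier5 at the shoulder of the distribution and Egr3 at 3.07.

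The calls were sensitive to single libraries, of which each strain has 1 for vehicle. Without the Balb/cJ vehicle library 2 genes were called, Egr1 and Ier3, and the limma-trend adjusted p was 0.111 for Nr4a1, 0.167 for Egr2 and 0.258 for Ier2. Without the C57Bl/6EiJ KLA library or the C57Bl/6EiJ vehicle library 3 were called, with Egr2 at 0.0638 and 0.0672 and Ier2 at 0.0503 and 0.0524 (limma-trend adjusted p). With no filter on low values 4 were called, without Ier2 (limma-trend adjusted p = 0.0513). With one or the other Balb/cJ KLA library left out 5 were called. With the date in the sample title in place of strain, which compares KLA and vehicle within Balb/cJ replicate 1 and within C57Bl/6EiJ, 5 were called as well.

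The second question was whether the strains differ. No title date holds libraries of both strains, so strain and date cannot be told apart. None of the 9 genes was called between Balb/cJ and C57Bl/6EiJ, where 1.16% of all tested models were. The smallest adjusted p was that of Ier2, -1.16 ± 0.41 (SE, log2, Balb/cJ over C57Bl/6EiJ, limma-trend adjusted p = 0.171), and 1 of the 9 genes had an unadjusted p under 0.05. Ier2 was called when Balb/cJ KLA replicate 2 was left out (-1.51, limma-trend adjusted p = 0.0362) and among models of at least 16 RPKM (adjusted p = 0.0444, range over alternatives 0.0362 to 0.575).

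The size of the KLA response in each strain was then compared for every gene. Egr3, with 1 vehicle read in Balb/cJ, had ratios of read rates of 74.4 and 108 in that strain and 18.9 in C57Bl/6EiJ, with overlapping intervals. In Balb/cJ, with vehicle and KLA replicate 1 of a shared title date, the ratio of read rates was 41.4 for Egr1, 24.4 for Ier3, 25.0 for Nr4a1, 12.5 for Ier2 and 5.05 for Egr2. In C57Bl/6EiJ, also of a shared date, the ratios were 96.3 for Egr1, 31.5 for Ier3, 42.1 for Nr4a1, 14.5 for Ier2 and 8.67 for Egr2. The intervals of both strains overlapped for Ier3, Nr4a1 and Ier2, and not for Egr1 (29.6 to 59.8 in Balb/cJ, 82.4 to 113 in C57Bl/6EiJ) and Egr2 (4.45 to 5.76 and 8.17 to 9.19). With Balb/cJ KLA replicate 2 over the same vehicle library the ratios of Ier2 and Nr4a1 were 31.6 and 48.7, above C57Bl/6EiJ, and for Ier2 the intervals did not overlap (20.6 to 51.2, against 12.7 to 16.6 in C57Bl/6EiJ). In that pair the intervals of Egr1, at 58.1 (41.5 to 84.0), and of Egr2, at 7.64 (6.72 to 8.73), overlapped with those of C57Bl/6EiJ. Ier5, Nab2 and Srf had the larger ratios in Balb/cJ, at 3.74, 4.94 and 2.14 for replicate 1 and 4.15, 3.28 and 1.84 for replicate 2, against 1.33, 1.41 and 1.18 in C57Bl/6EiJ. Their intervals did not overlap between strains. All of these intervals cover counting error only, and the share of all models without overlap was not computed. Between the 2 Balb/cJ KLA libraries the chi-square per degree of freedom of the read counts was 81.0 over 11426 models, a spread far beyond counting error. The interaction of treatment and strain, fitted with 1 residual degree of freedom, was called for 0 of the 9 genes and for 0% of all tested models (835 at an unadjusted p under 0.05, and 44 called with limma-trend after GC correction). The largest was that of Ier5, 1.53 ± 0.53 on the log2 scale (SE, Balb/cJ minus C57Bl/6EiJ, limma-trend adjusted p = 0.601), followed by Nab2 at 1.33 ± 0.59 (adjusted p = 0.649). Neither interaction was called in any of the alternatives tried, and each turns on 1 vehicle library per strain. Here too strain cannot be told apart from date.

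Markers of other cells that peritoneal lavage can hold were summed in the same libraries. B cell markers (4 of 4 detected) summed to 10.1 to 14.5 RPKM in vehicle and 10.4 to 23.9 after KLA, and those of mesothelial cells or fibroblasts (6 genes) to 44.6 to 49.5 and 26.3 to 47.0. T cell markers (3 genes, Cd3d at 0 throughout) stayed at or under 0.519 RPKM. Of 7 neutrophil markers 1 reached 1 RPKM, with sums of 9.66 to 13.4 and 0.794 to 13.1 and with Camp, Ly6g and S100a9 at 0, and mast cell or eosinophil markers (4 genes, Prg2 at 0) summed to 0.753 to 1.28 and 0.784 to 4.32. Heat-shock genes, a sign of handling stress, summed to 120 to 146 RPKM in vehicle and 66.1 to 131 after KLA. The part of these cells and of handling in the KLA response was not tested.

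Other immediate-early genes moved as a larger body. From a list of 33, 32 were tested and 23 were called, all higher, beside 1.13% of all tested models, with a median log2 fold change of 3.55 against -0.15. The list was chosen with earlier results of these data known, so this share is not an independent test. The largest changes were those of the cytokine Il1b (7.70 ± 0.52 SE, limma-trend adjusted p = 6.46e-04) and the chemokines Cxcl1 (7.67 ± 0.41, adjusted p = 2.78e-04) and Cxcl2 (7.55 ± 0.37, adjusted p = 1.96e-04). Summed over the list, RPKM was 1058 to 1498 in vehicle and 13732 to 17418 after KLA.

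The relatives and cofactors of the 9 genes were counted in the same way. Of 14 (Egr4, Nab1, Nr4a2, Nr4a3, Ier5l, the ELK factors, the myocardin-related cofactors Mkl1, Mkl2 and Myocd, and the MEF2 factors) 10 were tested, 0 were called and 1 had a limma-trend adjusted p under 0.05, Ier5l, at -1.68 ± 0.29 (SE, adjusted p = 0.0372) with under 16 RPKM in both groups. Their median log2 fold change was -0.37, against -0.15 over all models. Cytoskeletal targets of SRF and its MRTF cofactors were not called either, with 0 of 19 tested and a median log2 fold change of 0.09. The 5 tested heat-shock genes likewise gave 0 calls. At an unadjusted p under 0.05 limma-trend gave 1 of the relatives and cofactors, 3 of the cytoskeletal targets and 1 of the heat-shock genes, and no other tool was run on these lists.

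In resting macrophages the levels of some genes differed between iBMDMs and TGEMs, where the kind of cell cannot be told apart from transformation, culture and date. The iBMDMs are C57Bl/6EiJ, so by the labels the TGEM vehicle library of that strain has the same background, although the study's text mostly names the substrain as 6J. Egr2 spanned 0.197 to 1.23 RPKM over the 8 iBMDM libraries, against 47.3 in C57Bl/6EiJ TGEM vehicle and 35.0 in Balb/cJ. Egr1 spanned 0.190 to 3.02 RPKM, also below the 4.69 and 4.73 of C57Bl/6EiJ and Balb/cJ vehicle. Ier3 was the other way about, at 3.50 to 15.7 RPKM in iBMDMs against 1.53 in C57Bl/6EiJ vehicle and 1.97 in Balb/cJ. Ier2 (2.69 to 12.6 in iBMDMs) and Ier5 (14.4 to 55.4) were below C57Bl/6EiJ vehicle (16.5 and 75.2), while Balb/cJ vehicle (5.90 and 23.8) lay within their ranges, for Ier5 through the Atf3KO libraries alone (28.1 and 55.4), as the other 6 reached at most 21.7. For Nab2 (8.84 to 17.9 in iBMDMs) C57Bl/6EiJ vehicle (13.2) lay within the range and Balb/cJ vehicle (4.49) below it. For Nr4a1 (0.473 to 5.48) C57Bl/6EiJ and Balb/cJ vehicle (0.675 and 0.692) lay within the range through JunKO replicate 2 alone, as the other 7 libraries were at 0.951 or more. For Egr3 (0 to 1.70) these vehicle libraries (0.462 and 0.112) did so through the Atf3KO libraries at 0, as the other 6 were at 0.615 or more. For Srf 7 iBMDM libraries (3.29 to 9.63) were below both vehicle libraries (18.6 in C57Bl/6EiJ and 11.0 in Balb/cJ), and Atf3KO replicate 2 (21.6) was above them. These levels are per length of exon and are given with no test.

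Comparing Atf3KO libraries with Scramble asked which genes change with the editing of Atf3, a stress-induced AP-1 factor. In iBMDMs 7 of the 9 genes were tested, since Egr2 and Egr3 averaged under 1 RPKM. Of the 7 genes 1 was called, Ier5, higher, beside 12.5% of all 10691 tested models, and the same 1 of 7 passed by adjusted p alone, beside 41.2% of all models. Only Ier5 averaged 16 RPKM or more in Atf3KO or Scramble (Srf averaged 15.6 in Atf3KO), so in this fit no other gene could be called. Ier5 measured 28.1 and 55.4 RPKM in Atf3KO replicates 1 and 2 and 14.4 and 19.9 in Scramble. Both Atf3KO libraries were above both Scramble libraries, but replicate 2, of the later date, was nearly 2-fold above replicate 1. Ier5 was higher by 1.18 ± 0.31 on the log2 scale (SE, 2 libraries per group, limma-trend adjusted p = 0.0178). The fit shares 1 estimate of the spread over all 4 groups. Between replicates the chi-square per degree of freedom of the read counts was 27.6 in Atf3KO, at unequal depths, against 4.01 in Scramble, 3.74 in JunKO and 3.67 in JunDKO. The shared estimate may thus understate the spread of Atf3KO.

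The call of Ier5 did not hold in 6 of 16 alternatives. Without Atf3KO replicate 2 the change was 0.70 (limma-trend adjusted p = 0.0673), and without Scramble replicate 1 or 2 it was 0.96 (0.102) and 1.39 (0.0509). It fell under the 2-fold limit after GC correction (0.99) and after quantile normalization (0.95), and a fit to these 2 groups alone gave a limma-trend adjusted p of 0.0501 (range over alternatives 0.00501 to 0.102).

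Srf showed a similar picture without passing. It measured 9.63 and 21.6 RPKM in Atf3KO replicates 1 and 2 and 7.74 and 4.72 in Scramble. The difference on the log2 scale was 1.13 ± 0.42 (SE, limma-trend adjusted p = 0.0620), and the Atf3KO value again rested on replicate 2, since without it the change was 0.59 and without replicate 1 it was 1.68 (limma-trend adjusted p = 0.0249, called). Over the alternatives its adjusted p ranged from 0.0249 to 0.421, limma-voom giving 0.0435. The Srf model is 60.1% G or C, and after GC correction the change was 0.28. Of the other genes tested Egr1 measured 1.48 and 3.02 RPKM in Atf3KO against 1.69 and 0.190, Ier2 5.24 and 12.6 against 7.85 and 4.23, Ier3 9.21 and 15.7 against 10.5 and 12.9, Nab2 11.8 and 13.1 against 14.2 and 11.1, and Nr4a1 1.20 and 1.29 against 1.26 and 1.90. Both groups overlapped for each of these 5 genes, and the smallest adjusted p among them was 0.192 (limma-trend).

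Egr3 had 0 reads in both Atf3KO libraries, which together held 11634003 reads, and 13 reads in Scramble, which held 3641529. With 3 reads over the group as the limit for a count of 0, Egr3 was at least 13.8-fold lower, where the 13 Scramble reads are taken as counted, without their own counting error. Below the limit of 1 RPKM the gene was not tested, and in the fit without that limit its limma-trend adjusted p was 0.0229, beside 29.4% of all models with one under 0.05 in that fit. JunKO had 7 and 4 reads of Egr3, with ratios of read rates to Scramble of 1.15 (exact 95% interval 0.39 to 3.10) and 0.65 (0.16 to 2.12). JunDKO had 10 and 76 reads at very unequal depth, with ratios of 1.80 (0.71 to 4.45) and 1.15 (0.64 to 2.27). Zeros of this kind were frequent in Atf3KO. Of 11429 models with reads in both Scramble libraries 10.7% had none in either Atf3KO library, against 1.43% in JunKO and 1.99% in JunDKO, and of the 9844 models with at least 13 Scramble reads 3.67% had none in Atf3KO. The 10.7% included Dusp1, Fosl1 and Phlda1 among 29 other immediate-early genes, and Acta2 and Tagln among 17 cytoskeletal SRF targets. The part of these zeros in the value of Egr3 was not tested. Egr2 had 8 and 21 reads in Atf3KO against 10 in both Scramble libraries, with ratios of 0.66 (0.23 to 1.86) and 1.06 (0.48 to 2.51).

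**Figure D5:**
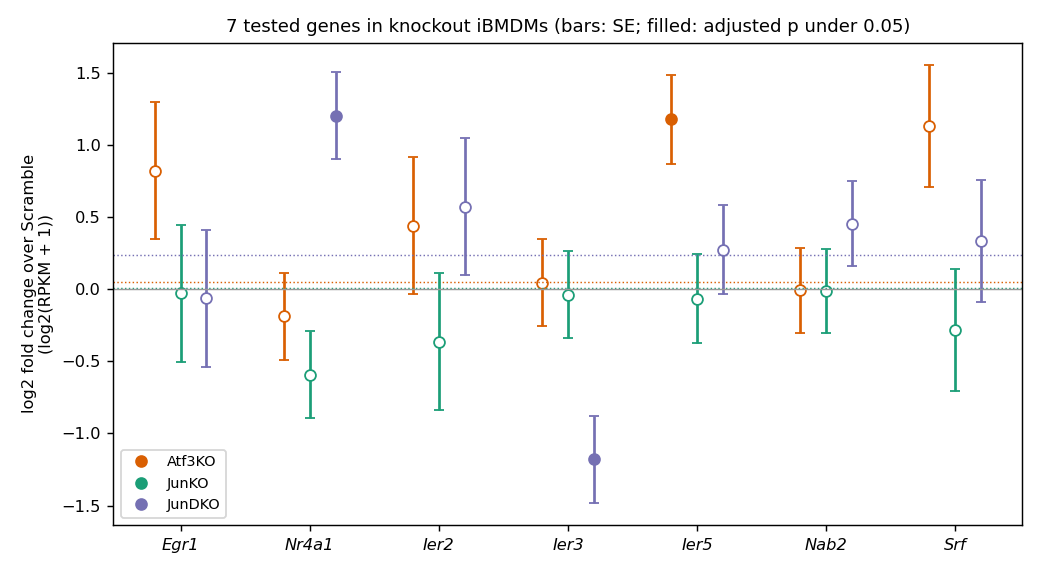
Log2 fold changes over Scramble of the 7 tested genes in iBMDMs labelled Atf3KO, JunKO and JunDKO (y axis, log2(RPKM + 1) scale), with SE bars, filled points where the limma-trend adjusted p is under 0.05 and dotted lines at the median of all tested models. The filled points are Ier5 in Atf3KO and Nr4a1 and Ier3 in JunDKO.

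In JunKO, edited at the AP-1 gene Jun, 0 of the 7 genes were called, beside 0.196% of all tested models. Only Ier5 averaged 16 RPKM or more in either group (16.1 in JunKO and 17.1 in Scramble), so no other gene could be called. None of the 7 had an unadjusted p under 0.05 by limma-trend, and limma-voom and the other alternatives also gave 0 calls. Over all models 842 had an unadjusted p under 0.05. The smallest adjusted p was that of Nr4a1, at 0.951 and 0.473 RPKM in JunKO and 1.26 and 1.90 in Scramble (-0.59 ± 0.30 on the log2 scale, limma-trend adjusted p = 0.719 and, over the alternatives, 0.437 to 1.00), values that rest on 6 and 14 reads. Ier3 measured 11.3 and 11.3 RPKM, Ier5 16.2 and 16.1, Nab2 17.3 and 8.84, Ier2 6.56 and 2.69, Srf 6.89 and 3.29, and Egr1 0.574 and 0.951.

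In JunDKO, edited at Jund, 0 of the 7 genes met the full call, beside 4.97% of all tested models, and 2 passed by adjusted p alone, Nr4a1 and Ier3, beside 11.7%. Nr4a1 measured 5.48 and 4.33 RPKM in JunDKO against 1.26 and 1.90 in Scramble, and the JunDKO libraries were the highest of all 8 iBMDM libraries. The difference was 1.20 ± 0.30 on the log2 scale (SE, 2 libraries per group, limma-trend adjusted p = 0.0388), and the read rate was 3.52 times that of both Scramble libraries in replicate 1 (21 reads, exact 95% interval 1.71 to 7.48) and 2.78 times in replicate 2 (197 reads, 1.62 to 5.18, counting error only). Ier3 went the other way, with 5.93 and 3.50 RPKM in JunDKO, the lowest of the 8 iBMDM libraries, against 10.5 and 12.9 in Scramble. It differed by -1.18 ± 0.30 on the log2 scale (SE, limma-trend adjusted p = 0.0414). The ratio of read rates was 0.51 in replicate 1, whose 10 reads gave an interval of 0.23 to 1.02, and 0.30 in the deeper replicate 2 (70 reads, 0.20 to 0.45). Only Ier5 (means of 20.7 RPKM in JunDKO and 17.1 in Scramble) and Nab2 (17.5 in JunDKO) averaged 16 RPKM or more in a group. Nr4a1 and Ier3 did not, so neither could be called.

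These 2 changes were read against a shift of all models, whose median log2 fold change in JunDKO was 0.23. Relative to that median Nr4a1 stood at 0.97 and Ier3 at -1.42. At equal library medians Nr4a1 no longer passed (0.92, limma-trend adjusted p = 0.105, between 0.0205 and 0.192 over all alternatives), whereas Ier3 did (-1.46, adjusted p = 0.0164, range 0.0123 to 0.246). Leaving out any 1 of the 4 libraries took both over the limit, to 0.0828 to 0.192 for Nr4a1 and 0.0835 to 0.246 for Ier3 (limma-trend adjusted p). The rest of the 7 had a limma-trend adjusted p of at least 0.354, with 7.41 and 8.46 RPKM for Srf, 21.7 and 19.7 for Ier5, 17.9 and 17.1 for Nab2, 10.6 and 7.82 for Ier2 and 0.420 and 1.06 for Egr1.

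Summed heat-shock genes and a neutrophil marker were lower in JunDKO. Heat-shock genes summed to 479 to 504 RPKM, against 810 to 892 in Scramble, 657 to 763 in Atf3KO and 742 to 839 in JunKO. S100a8, the single neutrophil marker above 1 RPKM in iBMDMs, was at 0 in JunDKO, while the list summed to 33.2 to 34.8 RPKM in Scramble. Macrophage markers went both ways. Of 9, 4 were higher in both JunDKO libraries than in both Scramble libraries (Csf1r, Cd68, Fcgr1 and Mertk), 3 were lower (Lyz2, Adgre1 and Itgam) and 2 overlapped, and their sum was 17040 to 17621 RPKM against 22457 to 24039, most of it Lyz2 (means of 14962 and 20855). The share of all models that separate in this way was not computed, so these counts have no background to be read against. The part of these genes in the values of Nr4a1 and Ier3 was not tested.

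The knockouts were also compared directly, in the same fit to 8 iBMDM libraries, where Scramble enters the estimate of the spread but not the difference. Of the 7 genes 3 passed by adjusted p alone between JunDKO and Atf3KO, beside 40.7% of all models, and 0 met the full call, beside 12.2%, so neither count stands apart from the background. The 3 genes were Nr4a1 at 1.39 ± 0.30, Ier3 at -1.22 ± 0.30 and Ier5 at -0.90 ± 0.31 (log2, JunDKO over Atf3KO, SE, limma-trend adjusted p = 0.00835, 0.0140 and 0.0467). Over the alternatives their limma adjusted p ranged from 0.00144 to 0.0743, from 0.00155 to 0.113 and from 0.00680 to 0.206. Ier5 rested on single libraries most, at -1.38 without Atf3KO replicate 1 and -0.43 without Atf3KO replicate 2 (limma-trend adjusted p = 0.00680 and 0.206), and it did not pass without JunDKO replicate 1 or 2 (limma-trend adjusted p = 0.137 and 0.196). Ier3 did not pass without Atf3KO replicate 2 or JunDKO replicate 2 (limma-trend adjusted p = 0.0789 and 0.113). Between JunKO and Atf3KO 1 of 7 met the full call, Ier5, lower at -1.24 ± 0.31 (SE, limma-trend adjusted p = 0.0174), beside 9.71% of all models. By adjusted p alone Srf passed too, at -1.41 ± 0.42 (SE, limma-trend adjusted p = 0.0335), which makes 2 of 7 beside 35.5%, below the background share. Srf lost this pass in 6 of 15 alternatives, with log2 fold changes of -1.96 to -0.64. The call of Ier5 was lost in a fit to these 2 groups alone (limma-trend adjusted p = 0.0645), and without JunKO replicate 1, without JunKO replicate 2 or without Atf3KO replicate 2 (limma-trend adjusted p = 0.0716, 0.0938 and 0.0624, range over alternatives 0.00612 to 0.0938), and after GC correction the difference of Srf was -0.64.

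Between JunDKO and JunKO 1 of 7 passed by adjusted p alone, Nr4a1 at 1.79 ± 0.30 (log2, SE, limma-trend adjusted p = 0.00983), beside 8.14% of all models, and 0 met the full call, beside 3.50%. Over the alternatives the limma adjusted p of Nr4a1 ranged from 0.00692 to 0.0834, and it did not pass without JunDKO replicate 1, JunDKO replicate 2 or JunKO replicate 2 (limma-trend adjusted p = 0.0834, 0.0514 and 0.0538). Ier3 was at -1.14 ± 0.30 with a limma-trend adjusted p of 0.0573 (range over alternatives 0.0182 to 0.304, under 0.05 in 4 of 15). All models had a median shift of 0.23 here too, and of 0.15 between JunDKO and Atf3KO. As the comparisons share libraries, they are not independent of each other. Only Ier5 and, in comparisons with JunDKO, Nab2 averaged 16 RPKM or more in a group, so no other gene could meet the full call.

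Other immediate-early genes, tested for 26 of 33 in iBMDMs, were called in both directions. In Atf3KO 2 were higher and 3 lower than Scramble (5 of 26, beside 12.5% of all models, with a median log2 fold change of -0.05 against 0.05), among them the cytokine gene Gdf15 at 3.33 ± 0.59 (SE, limma-trend adjusted p = 0.00412), Tnf at -2.03 ± 0.22 (adjusted p = 6.72e-04) and the kinase gene Sgk1 at -1.26 ± 0.21 (adjusted p = 0.00317). The other higher gene was Atf3, the one edited in these cells, at 1.02 ± 0.16 (SE, limma-trend adjusted p = 0.00237). In JunKO 0 of 26 were called by limma-trend, beside 0.196% of all models, with 5 at an unadjusted p under 0.05. In JunDKO 2 were higher, Fos at 1.51 ± 0.39 and Zfp36 at 1.15 ± 0.20, and 1 lower, Tnfaip3 at -1.69 ± 0.19 (SE, limma-trend adjusted p = 0.0423, 0.00795 and 0.00111), which is 3 of 26 beside 4.97% of all models, with a median of -0.38 against 0.23.

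Of the 11 relatives and cofactors tested in iBMDMs 1 was called, in JunDKO, where the MADS box factor Mef2c, a relative of SRF, was higher by 2.04 ± 0.24 (log2, SE, limma-trend adjusted p = 0.00127). This is 1 of 11 beside 4.97% of all models. Atf3KO and JunKO gave 0 calls on this list, beside 12.5% and 0.196%, with 3 and 0 genes at a limma-trend adjusted p under 0.05, and the 3 in Atf3KO are a lower share than the 41.2% of all models. Of 16 cytoskeletal SRF targets tested, 2 were lower in Atf3KO, Tpm1 at -1.35 ± 0.21 and Tpm4 at -1.08 ± 0.17 (SE, limma-trend adjusted p = 0.00278 and 0.00267), and 1 in JunDKO, Tpm4 at -1.67 ± 0.17 (adjusted p = 7.17e-04), both being tropomyosins. These counts, 2 and 1 of 16, stand beside 12.5% and 4.97% of all models. By limma-trend adjusted p alone 8 of 16 passed in Atf3KO, beside 41.2%, and 5 of 16 in JunDKO, beside 11.7%. The median of this list was -0.59 in Atf3KO and -0.48 in JunDKO, against 0.05 and 0.23 over all models. Beside the same shares, heat-shock genes gave 3 calls among 7 in Atf3KO, all lower and led by Hsp90aa1 at -2.06 ± 0.23 (limma-trend adjusted p = 8.04e-04), and 0 in JunDKO, where 4 of 7 had a limma-trend adjusted p under 0.05, beside 11.7% of all models.

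Across all 13 libraries the 9 genes did not share a single profile. Profiles were compared as the root-mean-square difference of log2(RPKM + 1) after centring each gene on its mean, over 10929 models of at least 1 RPKM on average. The closest pair among the 9 was Ier5 and Srf (0.45), followed by Nr4a1 and Egr3 (0.57). Egr1 and Egr2 were 1.19 apart, and the likeness of Egr1 to Ier2 was 1.30. Profiles of low variation are close to each other by this measure, and Nab2 (SD of 0.51 over libraries) and Srf (0.80) varied least while Egr2 (3.20) and Egr1 (2.98) varied most.

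The genes most like each of the 9 were found by the same measure among all other models. Csrnp1 (0.63) was nearest to Egr1, with Socs3 (0.69) and Nfkbiz (0.80) after it. Mmp14 (0.73), Tm4sf19 (0.80) and Cd200 (0.89) were nearest to Egr2, and Sowahc (0.37), Nfkbie (0.40) and Irf1 (0.50) to Egr3. Nr4a1 had Gm6377 (0.60), Irf1 (0.60) and Fos (0.61), Ier2 had Zswim4 (0.63), Noct (0.68) and Zfp36 (0.70), and Ier3 had Ccl2 (0.53), Slfn2 (0.58) and Nlrp3 (0.61). The flatter genes had closer neighbours, Tor2a (0.34), Pim3 (0.34) and Furin (0.36) for Ier5, Slc25a11 (0.29), Ykt6 (0.32) and Ptdss2 (0.33) for Nab2, and Clptm1 (0.26), Cotl1 (0.29) and Mknk2 (0.29) for Srf.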

How the data were processed

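The deposited values are RPKM, which the authors computed with HOMER over exons (genes condensed) from STAR alignments to mm10 (Balb/cJ libraries to a custom genome of the strain). Versions and a strand option were not given in the sources used here. Depth and whole reads were recovered from RPKM steps (100% of values up to 50 reads within 0.05 of a whole number or within rounding). log2(RPKM + 1) was fitted with limma-trend for models averaging 1 RPKM or more, on 4 groups over 8 iBMDM libraries (4 residual degrees of freedom) and on treatment and strain over 5 TGEM libraries (2 residual degrees of freedom). P-values were two-sided, adjusted by Benjamini-Hochberg over all tested models. Exact 95% intervals of read rate ratios come from the Clopper-Pearson interval of one library's share of both libraries' reads. GC content came from RefSeq transcripts for 98.8% of models, and the correction used a spline with 5 degrees of freedom. The 9 genes and all lists were chosen with earlier results of these data known. Genes named beside them were, by rule, up to 3 called genes with the largest change per list, the 3 nearest profiles and the targeted genes. Ier5l and single markers were named after their values were seen. The fits were tested on simulated data. limma 3.58.1 ran in R 4.3.3, and the rest in Python 3.11.15 with pysam 0.24.0, scipy 1.17.1, pandas 2.3.3, numpy 2.4.6 and matplotlib 3.10.9. The authors' edgeR was not used.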

Additional observations from a re-analysis of the deposited data

How the results depend on the processing

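Each result was recomputed under the alternatives, with 511 values of log2 fold change in 36 results. By the full call 18 lost it, 24 gained it and 1 turned direction, the interaction of Ier2 (-0.0102 with a pseudocount of 5, against 0.32), but genes under 16 RPKM cannot be called and so cannot lose a call. By limma adjusted p alone, 51 of the 239 values of the 15 results under 0.05 were above it, among them 9 of 15 for Nr4a1 and 7 of 15 for Ier3 in JunDKO against Scramble, and 12 of the other 272 were under it. Genes called numbered, without 1 library each, 0 to 2 (Atf3KO against Scramble), 0 to 2 (JunDKO against Atf3KO), 0 to 2 (JunKO against Atf3KO), 2 to 5 (KLA) and 0 to 1 (strain). For Atf3KO against Scramble 0 were called after quantile normalization, after GC correction and in a fit to 2 groups, and for JunKO against Atf3KO 0 in that fit. Without the RPKM minimum, and by adjusted p alone, 2 and 2 were called in JunDKO, 2 and 3 for JunDKO against Atf3KO, 2 and 2 for JunKO against Atf3KO and 1 and 1 for JunDKO against JunKO. For JunDKO against Atf3KO 1 was called at equal medians and 1 after GC correction, and for strain 1 at 16 RPKM. The interaction could not be fitted without single libraries, and a lone library left in a group was assumed to vary like the other groups. Replicate numbers were not taken to pair the samples, as no label ties them and correlations of deviations were 0.18 to 0.22 among Scramble, JunKO and JunDKO but -0.21 to -0.12 with Atf3KO, whose replicate 2 has another title date. The replicate block gave 1 gene called in Atf3KO, 0 in JunKO and 0 in JunDKO, and 1320, 8 and 506 of all models, against 1339, 21 and 531, and in JunDKO a limma-trend adjusted p of 0.0643 for Nr4a1 and 0.0688 for Ier3. Counts over all models ranged from 815 to 4409 (Atf3KO), 5 to 58 (JunKO), 264 to 1256 (JunDKO), 15 to 228 (KLA, against 117), 17 to 345 (strain, against 120) and 0 to 44 (interaction, against 0). Depth limits what can be seen of Egr1, Egr2, Egr3 and Nr4a1 in iBMDMs, where a group held 0 to 218 reads of each.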
